A study of Rattus norvegicus with 8 samples.

Results

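Sterol pathway genes were examined in whole blood of rats on a high-fat or a normal diet. Of 7 genes chosen for their place in that pathway (Srebf2, Insig1, Hmgcs1, Mvk, Fdft1, Sqle and Sc5d), 6 were read by 12 of the 31042 tested probe sets of the array. A probe set is a group of short probes that measures 1 transcript, and it was taken for a gene where the platform annotation gave that symbol and no other. Srebf2 and Fdft1 had 2 probe sets each, Mvk and Sc5d had 3 each, Insig1 and Sqle had 1 each, and Hmgcs1, the cytosolic synthase that makes HMG-CoA, had 0 named probe sets and has no value here. The rats were male Wistar animals, 7 weeks old at purchase, kept for 1 week of acclimation and then fed a high-fat diet (Quick fat) in 4 arrays or a normal diet (CE-2) in 4 arrays for 8 weeks. All were fasted overnight before their blood was taken on the last day. The labels name 10 rats per diet and call the arrays of a diet biological replicates, but they do not tie an array to an animal.

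Cells make cholesterol from acetyl units through mevalonate, farnesyl diphosphate and squalene. The protein made from Srebf2 is a transcription factor held in the endoplasmic reticulum. When sterols run short it is carried to the Golgi, cut free and moved to the nucleus, where it switches on synthesis and uptake genes, and when sterols are plentiful the protein made from Insig1 holds it back. Mature red cells lack the organelles of this pathway, so in blood its transcripts are carried by white cells, platelets and young red cells that still hold RNA. In such bulk RNA, fewer cells of a type and less RNA per cell cannot be told apart.

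The deposited values read as log2 levels, but the 8 arrays were nearly alike. Among all probe sets the median SD between arrays was 6.07 millionths of a log2 unit, and the sterol pathway probe sets had SDs from 1.23 to 51.0 millionths. Values this close cannot be read as fold changes in RNA, and none are given. Values are stated below as deviations of an array from the mean of its probe set over the 8 arrays, in millionths of a deposited log2 unit. A difference is the high-fat mean minus the normal mean. It is also given as a multiple of the spread between arrays of a diet (the pooled SD of both diets), termed within-group SDs.

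Srebf2, Mvk, Fdft1 and Sc5d each had at least 1 probe set on which all high-fat arrays lay above all normal arrays, and each also had another probe set on which the diets overlapped. In all, 5 of the 12 probe sets separated the diets, each with the high-fat arrays higher, where 0.586% of all tested probe sets did so. None of the 12 was lower in every high-fat array, against 0.857% of all. The genes were picked with earlier results of these data known, so the first share is no independent evidence of a direction. The mean scaled level of red cell markers also separated the diets, with the high-fat arrays higher. No probe set passed limma's test at an adjusted p of 0.05. The count was 0 of 31042 (0%), and Welch's test with the same adjustment also called 0. At an unadjusted p under 0.05 limma gave 699 probe sets (2.25%) and Welch's test 623, and 4 of the 12 sterol pathway probe sets were among those of limma. All 4 were higher in the high-fat arrays, a direction taken by 0.95% of all probe sets at that p, while 1.3% were lower. All 12 had an adjusted p of 1 by limma, so the values that follow describe these arrays, and no gene is stated to have changed.

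**Figure D1:**
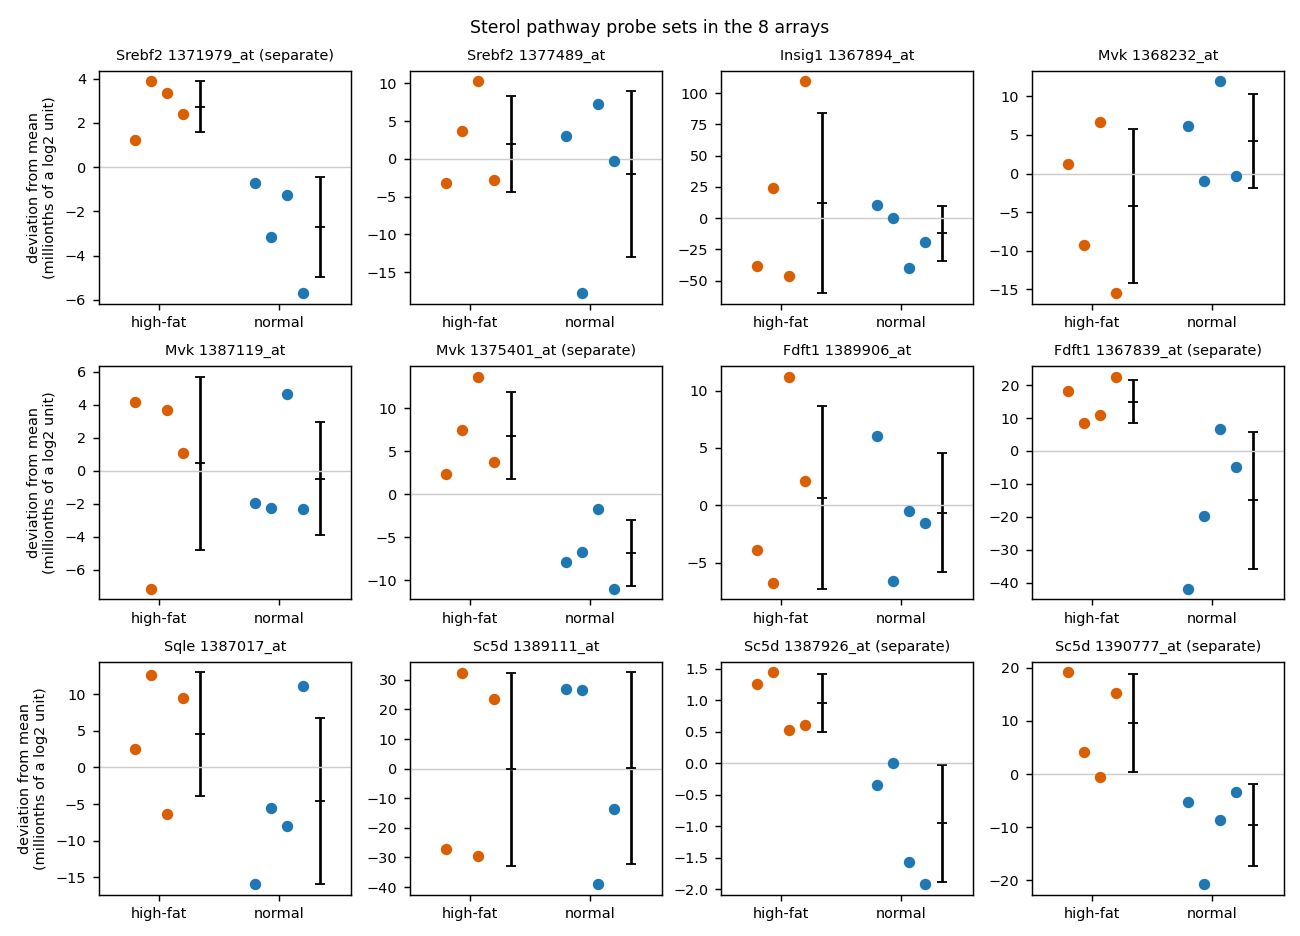
Deviation of each array from the mean of its probe set (vertical axis, millionths of a deposited log2 unit, its own scale in each panel) for 4 high-fat arrays (orange) and 4 normal arrays (blue), with the group mean and SD as black bars. In the 5 panels marked separate, every high-fat point lies above every normal point. In the other 7 panels the diets overlap.

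Before the values, the promoters of the 3 genes with a separated probe set and a promoter sequence at hand are shown, since this is where sterol-responsive transcription factors act. The windows are RefSeq sequences of the GRCr8 assembly, from 250 bases before to 50 bases after the gene start, written 5′ to 3′ along the gene. Capitals mark matches on either strand to TCACNCCA, a form of the sterol regulatory element bound by the product of Srebf2, and to CCAAT, the box bound by the factor NF-Y, whose reverse complement is ATTGG.
Srebf2 promoter, chr7:115543057-115543356, plus strand: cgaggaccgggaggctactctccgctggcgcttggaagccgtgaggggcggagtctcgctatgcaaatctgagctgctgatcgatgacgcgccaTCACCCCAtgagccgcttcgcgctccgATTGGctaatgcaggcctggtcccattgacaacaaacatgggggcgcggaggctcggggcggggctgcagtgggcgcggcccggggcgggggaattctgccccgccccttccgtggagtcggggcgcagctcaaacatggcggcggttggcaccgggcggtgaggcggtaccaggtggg
Mvk promoter, chr12:47819454-47819753, minus strand: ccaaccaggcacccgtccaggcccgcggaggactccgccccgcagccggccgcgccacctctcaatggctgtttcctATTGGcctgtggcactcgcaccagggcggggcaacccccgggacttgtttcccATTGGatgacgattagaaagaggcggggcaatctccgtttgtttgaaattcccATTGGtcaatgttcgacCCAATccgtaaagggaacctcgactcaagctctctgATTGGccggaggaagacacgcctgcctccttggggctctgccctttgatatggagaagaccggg
Sc5d promoter, chr8:51538228-51538527, minus strand: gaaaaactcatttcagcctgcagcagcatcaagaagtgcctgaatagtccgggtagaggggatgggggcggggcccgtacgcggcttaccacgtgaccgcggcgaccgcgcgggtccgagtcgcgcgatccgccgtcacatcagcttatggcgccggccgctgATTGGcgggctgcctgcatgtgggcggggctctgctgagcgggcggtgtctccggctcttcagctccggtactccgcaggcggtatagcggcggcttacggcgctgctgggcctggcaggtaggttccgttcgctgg
The Srebf2 window held 1 match to TCACNCCA, at position -156 from the gene start, and a CCAAT box on the opposite strand at -129. The Mvk window held 5 CCAAT boxes and no TCACNCCA, and the Sc5d window held 1 CCAAT box. Promoter windows were found for 5 of the 7 genes, these 3 with Insig1 and Hmgcs1. Of the 5 windows, 5 held CCAAT and 1 held TCACNCCA. Among 33469 rat promoter windows of the same length, 37.5% held CCAAT and 3.89% held TCACNCCA. The motifs were chosen after the sequences were seen, so these shares are no independent evidence about the genes. A link between motifs and diet values was not tested. In the windows shown, no match to one motif overlapped a match to the other. A match is a string of letters, not a site shown to be bound. Only this form of the sterol regulatory element was searched for, so a window without TCACNCCA is not shown to lack the element.

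Among the regulators, Srebf2 was read by a bright and a dimmer probe set. On the bright one, 1371979_at, the high-fat arrays deviated by 1.24, 3.88, 3.33 and 2.41 millionths (replicates 1 to 4) and the normal arrays by -0.734, -3.17, -1.26 and -5.70. All high-fat arrays lay above the mean and all normal arrays below it, with a gap of 1.98 millionths between the nearest arrays of the diets. The difference was 5.43 ± 1.41 millionths (SE, 4 arrays per diet), which equals 3.04 within-group SDs (adjusted p of 1 by limma). It ranked 68th of 31042 by unadjusted p. On the second probe set, 1377489_at, the high-fat arrays stood at -3.24, 3.64, 10.3 and -2.75 millionths and the normal arrays at 3.04, -17.8, 7.19 and -0.358. The diets overlapped there, and normal replicate 2 lay below the rest. The difference was 3.95 millionths with a 95% interval of -10.4 to 18.3, or 0.441 within-group SDs, and without normal replicate 2 it was -0.240.

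Insig1, the brake on that factor, had the widest spread of the 12 probe sets. Its high-fat arrays stood at -38.5, 23.8, -46.1 and 109 millionths, and its normal arrays at 10.4, -0.238, -39.7 and -19.2. High-fat replicate 4 was the highest of the 8 arrays, while high-fat replicates 1 and 3 lay with the lowest. The SD was 72.0 millionths in the high-fat group and 22.0 in the normal group. The difference of 0.457 within-group SDs turned to -0.273 without high-fat replicate 4, and its 95% interval ran from -60.0 to 109 millionths. Within these values no diet difference could be told from the spread between arrays.

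Mvk, mevalonate kinase, gave a different reading on each of its 3 probe sets. On the dimmest, 1375401_at, the high-fat arrays stood at 2.33, 7.50, 13.7 and 3.76 millionths and the normal arrays at -7.89, -6.67, -1.72 and -11.0. The diets did not overlap. The difference was 13.6 ± 3.08 millionths (SE, 4 arrays per diet), which equals 3.03 within-group SDs (adjusted p of 1 by limma), and it was the 30th smallest unadjusted p of the array. On the brightest, 1368232_at, the high-fat arrays stood at 1.17, -9.20, 6.69 and -15.5 millionths and the normal arrays at 6.20, -0.985, 11.9 and -0.343. High-fat replicates 2 and 4 were lowest, and the lower mean of the high-fat group, by -8.41 millionths or -1.02 within-group SDs, had a 95% interval of -21.6 to 4.82. It ran from -1.69 within-group SDs without high-fat replicate 3 to -0.669 without high-fat replicate 4. The third, 1387119_at, had a difference of 0.210 within-group SDs, and its high-fat arrays ran from -7.13 to 4.17 millionths, against -2.29 to 4.63 in the normal arrays.

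Fdft1, squalene synthase, joins farnesyl units at the first step committed to sterols. On 1367839_at the high-fat arrays stood at 18.0, 8.49, 11.0 and 22.5 millionths and the normal arrays at -41.8, -19.8, 6.54 and -4.97. The diets did not overlap, but the gap between the nearest arrays was 1.96 millionths, and normal replicates 1 and 2 lay furthest below the rest. The SD was 6.44 millionths in the high-fat group and 20.8 in the normal group. The difference of 30.0 ± 10.3 millionths (SE, 4 arrays per diet) was the largest of the 12 in deposited units and equalled 1.94 within-group SDs (adjusted p of 1 by limma). On the second probe set, 1389906_at, the high-fat arrays ran from -6.79 to 11.2 millionths and the normal arrays from -6.59 to 6.03. The diets overlapped almost fully there, at 0.199 within-group SDs.

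Sqle, squalene epoxidase, which adds the oxygen that becomes the sterol hydroxyl, had 1 probe set. The high-fat arrays stood at 2.56, 12.6, -6.35 and 9.48 millionths and the normal arrays at -15.9, -5.49, -7.96 and 11.1. Normal replicate 4 lay among the highest arrays, and the other 3 normal arrays, with high-fat replicate 3, were the lowest 4 of the 8. The difference was 0.916 within-group SDs, with a 95% interval of -6.77 to 25.0 millionths, and it ran from 0.580 within-group SDs without normal replicate 1 to 1.95 without normal replicate 4.

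Sc5d, a desaturase that acts late in sterol synthesis, had 3 probe sets, of which 2 separated the diets. On 1390777_at the high-fat arrays stood at 19.2, 4.24, -0.489 and 15.3 millionths and the normal arrays at -5.35, -20.8, -8.68 and -3.47. The difference was 19.1 ± 5.73 millionths (SE, 4 arrays per diet), or 2.24 within-group SDs. On 1387926_at the high-fat arrays stood at 1.26, 1.44, 0.528 and 0.598 millionths and the normal arrays at -0.340, 0.00163, -1.57 and -1.92. This probe set had the smallest spread of the 12, with an SD of 1.23 millionths over the 8 arrays, lower than that of most of the array (percentile 8.79). Its difference was 2.60 within-group SDs, or 1.91 millionths with a 95% interval of -0.252 to 4.08. On the third probe set, 1389111_at, 2 high-fat arrays were high and 2 low. The high-fat arrays stood at -27.1, 32.3, -29.5 and 23.5 millionths and the normal arrays at 26.8, 26.6, -39.0 and -13.6, a difference of -0.0126 within-group SDs.

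**Figure D2:**
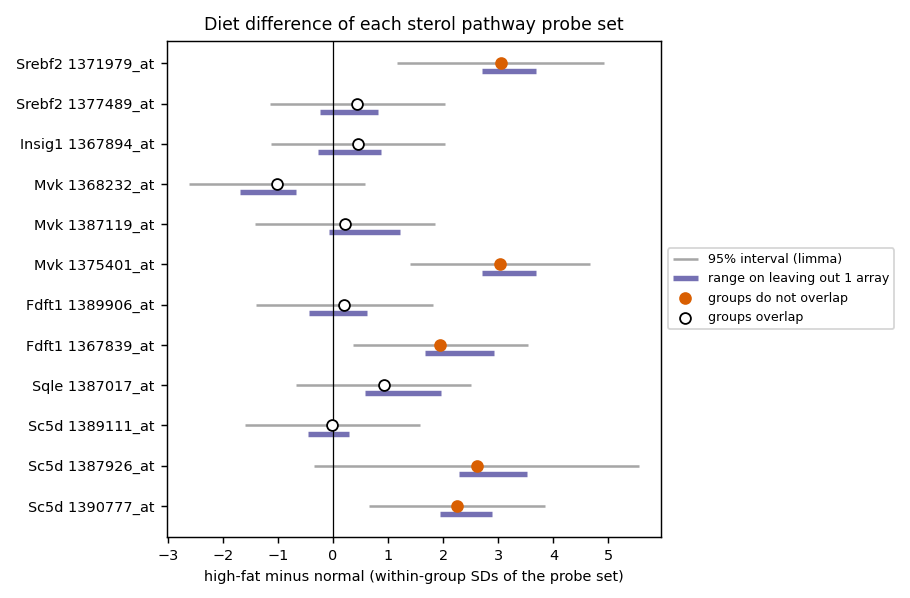
High-fat minus normal difference of each of the 12 probe sets in within-group SDs (points), with the 95% interval from limma (grey lines) and the range on leaving out each array in turn (violet bars). The 5 filled points, from 1.94 to 3.04, are the probe sets whose diets do not overlap, and each gene with a filled point also has an open one between -1.02 and 0.441.

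Over the 12 probe sets, 10 had a higher mean in the high-fat group and 2 a lower one, where 46.6% of all probe sets were higher. The median difference was 0.686 within-group SDs, against -0.0479 over all probe sets. Since the genes were picked with earlier results of these data known, neither value is independent evidence of a direction. The exact permutation test of a single probe set, two-sided over all assignments of 4 against 4 arrays, cannot give a p below 0.0286, and the 5 separated probe sets had that value before any adjustment. After each array was centred on its median all 12 differences were negative, as were those of nearly all probe sets, of which 1.63% stayed higher. That centring shifts every difference alike, since the array medians averaged 66.0 millionths higher in the high-fat group, more than any of the 12 differences, so it tells nothing about these genes in particular. The median of the differences themselves over all probe sets was -0.170 millionths. Each array was also centred on its median deviation from the probe set means, a scaling added after the data were seen. It left 10 of the 12 higher, where 52.0% of all probe sets were. This scaling too shifts every difference alike, and by too little to turn any of the 12, so the unchanged count is no further support. Srebf2 stood at 3.46 within-group SDs on its bright probe set and Mvk at 3.25 on its dimmest. A further quantile normalization left 4 of the 12 higher, against 22.3% of all. It put the bright probe set of Srebf2 at 0 within-group SDs, Mvk 1375401_at at 1.92, Fdft1 1367839_at and Sc5d 1390777_at at 0.707 each, and Sc5d 1387926_at at 0.00900.

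Probe sets of the same gene were compared from array to array. In 8 pairs of probe sets within Srebf2, Mvk, Fdft1 and Sc5d, Pearson's r over the 8 arrays was above 0 in 5 and below 0 in 3, and no pair had an exact permutation p under 0.05. With 8 arrays this leaves room for moderate correlations. After the diet means were removed, r ran from -0.319 to 0.639 and was again above 0 in 5 pairs and below 0 in 3. Before that removal, the highest r was between the separated probe sets of Sc5d, with r = 0.551 (exact permutation p = 0.157, adjusted p = 0.769) and Spearman's rho = 0.714 (exact permutation p = 0.0576, adjusted p = 0.385). Without the 2 arrays farthest from the median r was 0.675, and after the diet means were removed it was -0.319, the lowest of the 8 pairs. The probe sets of Srebf2 had r = 0.423 (exact permutation p = 0.305, adjusted p = 0.769) and rho = 0.405 (exact permutation p = 0.327, adjusted p = 0.856), with r = 0.568 without the 2 farthest arrays and 0.435 within the diets. Those of Fdft1 had r = -0.0786 (exact permutation p = 0.853, adjusted p = 0.853) and rho = 0.0714 (exact permutation p = 0.882, adjusted p = 1), with r = 0.524 without the 2 farthest arrays and -0.248 within the diets. The separated probe set of Mvk had r = -0.177 with the brightest one (exact permutation p = 0.672, adjusted p = 0.853), with rho = -0.0952 (exact permutation p = 0.840, adjusted p = 1) and r = -0.0436 without the 2 farthest arrays, but r was 0.614 within the diets. The brightest probe set of Mvk and 1387119_at had r = 0.486 (exact permutation p = 0.227, adjusted p = 0.769) and rho = 0.643 (exact permutation p = 0.0962, adjusted p = 0.385), with r = 0.726 without the 2 farthest arrays and 0.639 within the diets. The other 3 pairs had r from -0.117 to 0.344, with exact permutation p from 0.385 to 0.787.

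The separated probe sets were found over much of the range of level and SD. Of the 12, 8 had a mean level above the middle of the array and 4 below it. Srebf2 1371979_at was bright (percentile 93.5, mean level 8.16 in both diets) with a small SD (percentile 30.2). Mvk 1375401_at and Sc5d 1390777_at were dim (percentiles 25.4 and 27.4, mean levels 6.22 and 6.25 in both diets), and dim probe sets can carry more background than transcript. Signal over background was not analysed here. Levels of different probe sets depend on their probes and do not rank the genes by abundance. By the annotation, 4 of the 12 were designed on a RefSeq mRNA, of which 1 separated the diets (Fdft1 1367839_at), and 8 on other GenBank sequences, of which 4 did.

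**Figure D3:**
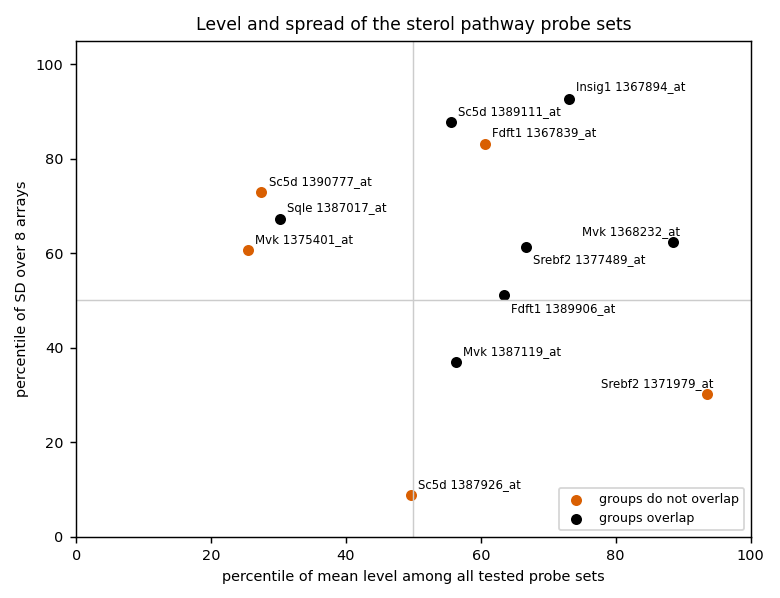
Mean level (horizontal axis, percentile among 31042 probe sets) against SD over the 8 arrays (vertical axis, percentile) for the 12 probe sets. The 5 probe sets whose diets do not overlap (orange) lie at level percentiles from 25.4 to 93.5 and at SD percentiles from 8.79 to 83.2, among the 7 others (black).

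The rest of the pathway was read with 1 probe set per gene, the brightest. Of 17 listed symbols of cholesterol synthesis, 14 were measured. Of these, 11 had a higher and 3 a lower mean on the high-fat diet, against 47.5% higher among all 14217 genes. The list was chosen with earlier results of these data known, so its share is no independent evidence of a direction. Their median difference was 0.472 within-group SDs, and that of all genes -0.0374. By limma 0 passed after adjustment over all probe sets, and 2 of 14 (Lss and Fdps) had an unadjusted p under 0.05, against 2.25% of all probe sets. The count of higher genes was 11 after each array was centred on its median deviation, where 52.3% of all genes were higher. That shift is alike for every gene and too small to turn any of the 14. With a further quantile normalization it was 5, where 24.0% of all genes were higher. Genes with equal diet means count as not higher there. Centring on the array median left 0, but also 2.38% of all genes, since it moves every gene alike. Lss, lanosterol synthase, which closes the ring, stood at 1.90 within-group SDs, Fdps, which makes farnesyl diphosphate, at 1.66, and Idi1, the isomerase before it, at 1.25. All had an adjusted p of 1 by limma. On Fdps the high-fat arrays stood at -10.5, 7.15, 55.6 and 44.5 millionths and the normal arrays at -45.1, -3.71, 2.03 and -50.0, so high-fat replicate 1 fell within the normal range. A second probe set of Lss stood at -0.191 and one of Idi1 at 0.513. Over all 21 probe sets of the 14 genes, 1 separated the diets, with the high-fat arrays higher, where 0.586% of all probe sets did so. It was the second-choice probe set 1377866_a_at of Ggps1, named after its value was seen. It stood at 2.44 within-group SDs, while the brightest probe set of Ggps1 stood at 0.159. Ggps1 makes geranylgeranyl diphosphate, which is not a sterol, but was counted in this list. Lbr, at 0.582, was counted with sensing and traffic, and other assignments would change the counts.

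Genes of sterol sensing and traffic were evenly divided. Of 16 measured, 8 had a higher and 8 a lower mean on the high-fat diet, with a median of -0.0339 within-group SDs, close to that of all genes. By limma 0 passed after adjustment, and 0 had an unadjusted p under 0.05, against 2.25% of all probe sets. Of their 29 probe sets, 0 separated the diets. Of all probe sets, 0.586% did so with the high-fat arrays higher and 0.857% with them lower. With shares this small, a count of 0 tells little about the list. Stard4, a carrier of cholesterol between membranes, stood at -0.817 within-group SDs and had 2 further probe sets at 0.372 and 0.880. Mylip, a ubiquitin ligase that marks lipoprotein receptors for destruction, stood at -0.704, and Npc2, which hands cholesterol out of the lysosome, at 0.655. Without high-fat replicate 4 the number of higher genes was 4, and without normal replicate 3 it was 5.

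**Figure D4:**
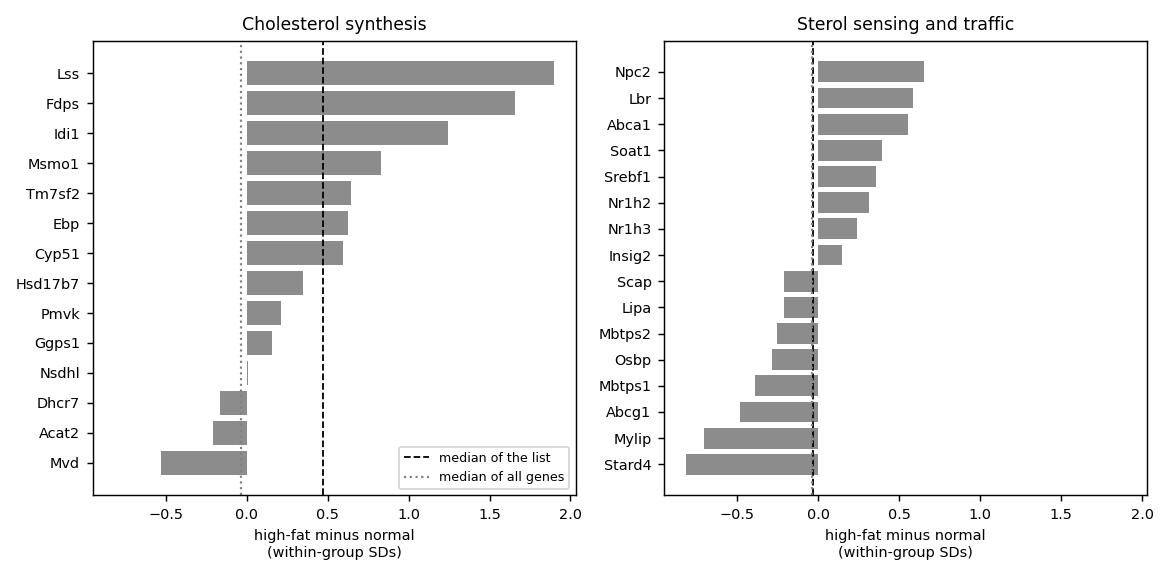
High-fat minus normal difference in within-group SDs for 14 genes listed under cholesterol synthesis (left) and 16 listed under sterol sensing and traffic (right). Each gene is given by its brightest probe set, with the median of the list (dashed) and of all genes (dotted). Bars on the left lie mostly right of 0, from -0.531 to 1.90, and those on the right spread to both sides, from -0.817 to 0.655.

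The genes whose arrays ran most like a member were found among the named probe sets of other genes (20824 for Srebf2) by Pearson's r over the 8 arrays, as a description without a test, since the best of so many is high by selection. Nearest to the bright probe set of Srebf2 were Nr2f2, a nuclear receptor, with r = 0.975 and Mfsd11 with r = 0.953. For Insig1 they were Zdhhc7, a palmitoyl transferase, at 0.984 and Irf2bp2 at 0.973. The brightest probe set of Mvk had Dkk3 at 0.977 and Zfp213 at 0.976, and that of Fdft1 had Pter at 0.961 and Snph at 0.958. For Sqle they were Dmac2 at 0.958 and Nfya, a subunit of NF-Y, at 0.947, and for the brightest probe set of Sc5d they were Cpsf2 at 0.988 and Rfc2 at 0.985. The number of probe sets with r above 0.9 was 9 for Sqle and 10 for Srebf2, against 150 for Insig1 and 211 for Sc5d.

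The markers were those of blood. Red cell, T cell, B cell and platelet markers lay at percentiles from 93.9 to 99.9 of the array. Neutrophil markers lay from 40.8 to 99.5 and monocyte markers from 65.3 to 99.8. Those of liver lay from 9.76 to 60.3 and those of adipose tissue from 25.9 to 36.6. Red cell markers stood higher in the high-fat arrays as a list, and Hemgn alone of them separated the diets by itself. The mean of the 4 measured of 5 listed (each scaled to an SD of 1) ran from -0.149 to 1.10 in the high-fat arrays and from -0.636 to -0.433 in the normal arrays, without overlap, and all 4 were higher in the high-fat group. Their part in the sterol pathway values was not tested. T cell markers ran from -0.715 to 0.188 in the high-fat arrays and from -1.54 to 1.31 in the normal arrays. Monocyte markers ran from -0.649 to 2.14 in the high-fat arrays and from -0.962 to 0.284 in the normal arrays. The value of 2.14 was that of high-fat replicate 4, which also had the highest Insig1 value. A link between them was not tested. The other marker lists overlapped too. One component held 31.4% of the scaled variation of all probe sets and gave its largest weights, of the same sign, to high-fat replicate 3 (0.390) and normal replicate 3 (0.672), so it did not follow the diet.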

How the data were processed

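Whole blood RNA was labelled with biotin for Affymetrix 3' arrays, per the labels' protocols. The values are log2 levels from the authors' deposited table, with 31099 probe sets from 5.19 to 15.25. Background correction, normalization and probe summary are not given in the sources used here. All 8 array medians were 6.60, and 0 pairs of arrays were identical. After removal of 57 control probe sets, 31042 were tested, of which 20826 had 1 gene symbol, 436 several and 9780 none. Symbols came from the platform annotation, and all 6 measured members had the same symbol in RefSeq by gene number.

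The titles gave each sample its diet and replicate number. High-fat and normal arrays were compared by limma 3.58.1 under R 4.3.3 (lmFit, eBayes, two-sided, no covariates), with Benjamini-Hochberg adjustment over all 31042 and a threshold of 0.05. Nothing in the labels ties an array to a separate animal, so p-values measure the spread between these samples. The script was tested on simulated data. Permutation tests used Python 3.11.15 and numpy 2.4.6. All member probe sets were kept. For each other pathway list the 3 genes with the smallest p were named, and for each member the 2 genes with the highest r. Members, lists and tests were chosen with earlier results of these data known, and the promoter motifs after the sequences were seen. The number of arrays limits the precision. Alternatives covered scaling, filter, variance model, test, replicate block and leaving out each array. A further diet group with mulberry leaf powder is not analysed here.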

Additional observations from a re-analysis of the deposited data

Results flagged for a closer look

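On Mvk 1387119_at, normal replicate 3 stood at 4.63 millionths while the other normal arrays lay from -2.29 to -1.95. Its gap to the nearest array was 0.951 of the range of the normal group, above Dixon's critical value for 4 arrays at the usual level. This was 1 of 24 groups examined, and chance flags about 1 in 20.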

How the results depend on the processing

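Counts of probe sets passing the adjusted threshold stayed at 0 in all limma and Welch alternatives but one. A further quantile normalization gave 32, none of them among the 12 sterol pathway probe sets. The lowest adjusted p in that fit was 2.15e-24 by limma. With 4 arrays per diet, a p this small needs almost no spread within the diets. The 32 are therefore not read as diet differences. The exact permutation test, unadjusted, gave 5 of the 12. These are the 5 separated probe sets again, since that test passes only where the diets do not overlap. Of all probe sets, 0.586% do not overlap with the high-fat arrays higher and 0.857% with them lower. The lowest adjusted p of the 12 over the limma and Welch alternatives was 0.191, after centring each array on its median. Quantile normalization turned Srebf2 1377489_at to -0.272 within-group SDs, Insig1 to -1.22 and Fdft1 1389906_at to -0.921. It left Srebf2 1371979_at, Mvk 1368232_at, Mvk 1387119_at, Sqle and Sc5d 1389111_at at 0, with equal diet means. Mvk 1375401_at was left at 1.92, Fdft1 1367839_at and Sc5d 1390777_at at 0.707 and Sc5d 1387926_at at 0.00900. Centring on the median, which moves all probe sets alike, turned the higher values to -1.10 (Srebf2 1371979_at), -1.05 (Srebf2 1377489_at), -1.53 (Insig1), -1.17 (Mvk 1387119_at), -0.922 (Mvk 1375401_at), -1.18 (Fdft1 1389906_at), -0.640 (Fdft1 1367839_at), -1.11 (Sqle), -1.18 (Sc5d 1387926_at) and -0.883 (Sc5d 1390777_at). Synthesis genes higher numbered 5 with quantile normalization and 0 with centring, and from 9 to 12 on leaving out each array. Sensing and traffic genes higher numbered 2 with centring and from 4 to 10 on leaving out each array.

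On leaving out each array, the 5 separated probe sets kept their sign. This was fixed in advance, because their diets do not overlap, and is no sign of robustness. Mvk 1368232_at and Sqle also kept their sign, and 5 probe sets did not. Srebf2 1377489_at ran from -0.240 to 0.814 within-group SDs, Insig1 from -0.273 to 0.876 and Mvk 1387119_at from -0.0694 to 1.22. Fdft1 1389906_at ran from -0.440 to 0.611 and Sc5d 1389111_at from -0.461 to 0.290. Deviations of arrays with the same replicate number correlated at -0.125, 0.205, 0.368 and 0.144 over probe sets. Those of arrays with different numbers ran from -0.296 to 0.199, so the values 0.205 and 0.368 lay above all of them. The labels do not say that the numbers pair the arrays. The main fit left the numbers out, and a block was run as an alternative. With the replicate number as a block, 0 probe sets were called by limma and 1111 had an unadjusted p under 0.05. In residual SDs the separated probe sets stood at 8.30 (Mvk 1375401_at), 5.51 (Sc5d 1387926_at), 3.46 (Sc5d 1390777_at), 2.81 (Srebf2 1371979_at) and 1.87 (Fdft1 1367839_at). Mvk 1368232_at stood at -2.52. The block leaves less information on the spread than the main fit, so these residual SDs are poorly known. With 4 arrays per diet, the number of arrays limits every value.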
